A study of Homo sapiens with 8 samples.

Results

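The desmosomal cadherin genes lie side by side on the long arm of chromosome 18, in band 18q12.1. The cluster was taken as chromosome 18 from 28560000 to 29140000 of the hg19 build, a span of 580 kb that runs from DSC3 to DSG2, and its members are the H3K4me2 peaks of the deposited lists that overlap this span. In all, 19 of the 280986 peaks in the 6 lists lay there, and they merged into 6 of 62780 regions. The members were selected on the authors' peak calls within these bounds, whatever their group, so that the presence of marked regions in the cluster is a description. The cluster was picked with earlier results of these data known. The study, whose title asks about the adhesion of rhabdomyosarcoma cells, used ChIP-seq, the sequencing of immunoprecipitated chromatin, to map H3K4me2 (histone H3 dimethylated on lysine 4) in RD cells, an established human rhabdomyosarcoma line used at passages 10 to 15. Cells received 1 siRNA construct against LSD1 (siLSD1) or a control siRNA (siCtrl), had their medium changed after 8 hours and were harvested at 96 hours. Each siRNA has 2 ChIP libraries, which the submitters call biological replicates, 2 input libraries, and 1 deposited list in which the replicates were pooled. The input libraries were not analysed here. The level of LSD1 itself was not measured in these files, so the knockdown was not checked, and neither were markers of the cell line.

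Desmosomes are junctions that hold neighbouring cells together and anchor their intermediate filaments. Their cell-to-cell contacts are built from 2 kinds of cadherin, the desmocollins (DSC1, DSC2 and DSC3) and the desmogleins (DSG1, DSG2, DSG3 and DSG4), whose cytoplasmic tails bind plakoglobin and the plakophilins. DSG2 and DSC2 are the widely expressed pair and the ones found in heart muscle, while DSG1, DSG3, DSC1 and DSC3 are known from stratified epithelia such as skin, and DSG4 from hair. H3K4me2 marks promoters and enhancers, and LSD1 is a demethylase that acts on lysine 4 with 1 or 2 methyl groups.

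In the RefSeq table, which is on the GRCh38.p14 build, the 7 genes follow each other without another protein-coding gene between them, in the order DSC3, DSC2, DSC1, DSG1, DSG4, DSG3 and DSG2. Below DSC3 the next protein-coding gene is CDH2, which encodes N-cadherin, and above DSG2 it is TTR, which encodes the thyroid hormone carrier transthyretin. That table was used for names, order and promoter sequences only. Without gene positions on hg19, no peak was assigned to a gene. Promoter sequences were found for 6 of the 7 genes. Of these, the 3 desmocollins are on the minus strand and DSG1, DSG3 and DSG2 on the plus strand.

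The promoters differ in their content of CG dinucleotides along the gene order, and 5 of the 7 sequences found are shown for that contrast. Each runs 5′ to 3′ from 250 bases before to 50 bases after a RefSeq start, with every CG in capitals. The GRCh38.p14 positions are chr18:31042693-31042992 for DSC3, chr18:31102372-31102671 for the first listed start of DSC2, chr18:31162807-31163106 for DSC1, chr18:31317910-31318209 for DSG1 and chr18:31497927-31498226 for DSG2, and they cannot be set beside the hg19 positions of the peaks.
DSC3: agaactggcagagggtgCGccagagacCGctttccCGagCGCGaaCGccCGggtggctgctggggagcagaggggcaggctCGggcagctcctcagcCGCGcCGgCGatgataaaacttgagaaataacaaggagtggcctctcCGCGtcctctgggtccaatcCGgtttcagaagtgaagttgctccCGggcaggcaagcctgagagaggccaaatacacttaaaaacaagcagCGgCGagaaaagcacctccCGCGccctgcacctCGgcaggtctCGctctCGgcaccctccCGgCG
DSC2: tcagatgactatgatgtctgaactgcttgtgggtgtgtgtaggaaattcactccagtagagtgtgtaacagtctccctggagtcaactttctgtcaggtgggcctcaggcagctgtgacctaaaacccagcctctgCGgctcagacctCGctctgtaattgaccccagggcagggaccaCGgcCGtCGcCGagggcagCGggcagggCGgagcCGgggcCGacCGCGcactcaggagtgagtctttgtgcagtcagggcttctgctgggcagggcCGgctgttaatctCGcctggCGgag
DSC1: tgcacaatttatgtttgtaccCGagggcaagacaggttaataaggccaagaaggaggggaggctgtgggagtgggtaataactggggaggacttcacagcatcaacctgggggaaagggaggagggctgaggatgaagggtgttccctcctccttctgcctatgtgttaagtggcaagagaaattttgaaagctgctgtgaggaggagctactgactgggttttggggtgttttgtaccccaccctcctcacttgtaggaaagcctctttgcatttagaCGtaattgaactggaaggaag
DSG1: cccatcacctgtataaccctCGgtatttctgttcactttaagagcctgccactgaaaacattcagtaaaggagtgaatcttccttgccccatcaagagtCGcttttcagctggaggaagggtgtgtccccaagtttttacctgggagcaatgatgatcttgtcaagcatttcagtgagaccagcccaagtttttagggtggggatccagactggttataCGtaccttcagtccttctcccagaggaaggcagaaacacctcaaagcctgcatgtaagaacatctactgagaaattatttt
DSG2: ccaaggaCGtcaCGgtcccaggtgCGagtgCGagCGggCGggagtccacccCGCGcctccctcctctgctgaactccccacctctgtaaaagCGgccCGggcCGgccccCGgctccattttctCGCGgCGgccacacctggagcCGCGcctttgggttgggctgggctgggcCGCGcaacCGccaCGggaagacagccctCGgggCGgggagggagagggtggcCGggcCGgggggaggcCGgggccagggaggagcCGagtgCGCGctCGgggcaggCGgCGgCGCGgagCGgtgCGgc

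DSG2 had the most CG dinucleotides, 36 in 300 bases, a count reached by 12.7% of the 35116 promoters in the table. DSC3 had 25, and the 2 listed starts of DSC2 had 15 and 22, all above the median promoter with 14. As many or more were found in 32.0% of all promoters for DSC3, and in 48.9% and 37.7% for the DSC2 starts. The first DSC2 start was thus close to the median. The promoters of the inner genes were poor in CG, with 2 in DSC1, 3 in DSG1 and 6 in DSG3. Counts at least as high as these were found in 89.0%, 81.8% and 66.3% of all promoters. The letters GGGCGG, searched on both strands, were present at both DSC2 starts and at DSG2 and in no other of the 7 sequences, against 45.0% of all promoters. The genes at both ends of the order, with DSC2, thus had CG counts above the median promoter, and DSC1, DSG1 and DSG3 between them had counts below it.

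**Figure D1:**
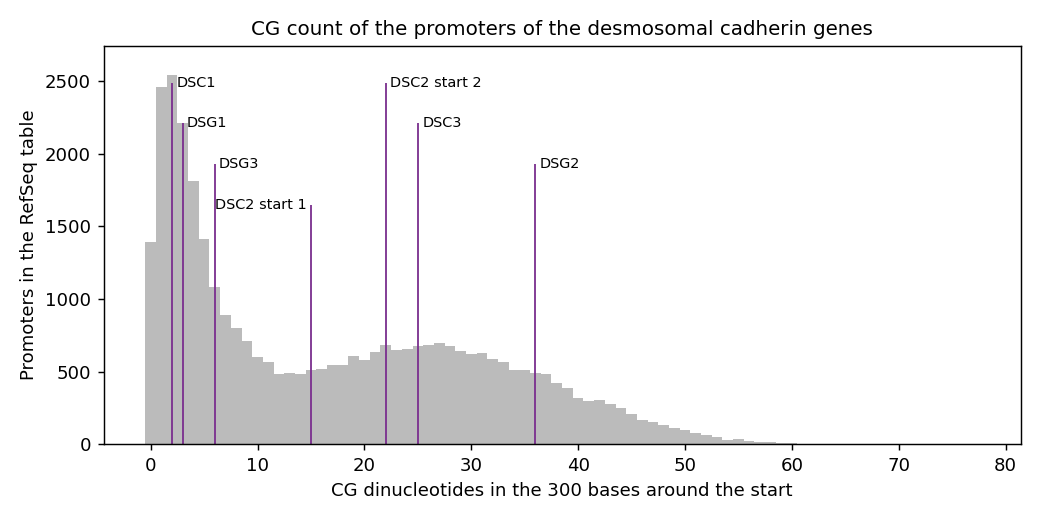
Number of CG dinucleotides in the 300 bases around each start (horizontal axis) against the number of promoters in the RefSeq table with that count (grey bars, vertical axis), with a purple line for each desmosomal cadherin promoter found. DSC1, DSG1 and DSG3 sit at 2, 3 and 6, below the median of 14, and DSC2, DSC3 and DSG2 sit at 15 to 36.

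The mark was found on both sides of the cluster's middle and was not called in the middle itself. A region 121 kb from the DSC3 end and a region 517 kb from it had a peak in all 4 libraries. Of the other 4 regions, 3 had a peak in 1 library each and the last was in a pooled list only. Between chromosome 18 positions 28682745 and 29077408 none of the 6 lists had a peak. This stretch of 395 kb makes up 68.0% of the cluster. Over chromosomes 1 to 22 and X, 857 of 62757 stretches between neighbouring regions (1.37%) were as long or longer, and 29 of 1344 (2.16%) on chromosome 18. Such long stretches are not rare by length, since they hold 27.4% of all sequence between regions, unsequenced parts of the build included. Of the cluster's 58 windows of 10 kb, 5 (8.62%) had a peak in at least 1 library, against 15.6% of windows on chromosome 18 and 19.0% over all chromosomes analysed.

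**Figure D2:**
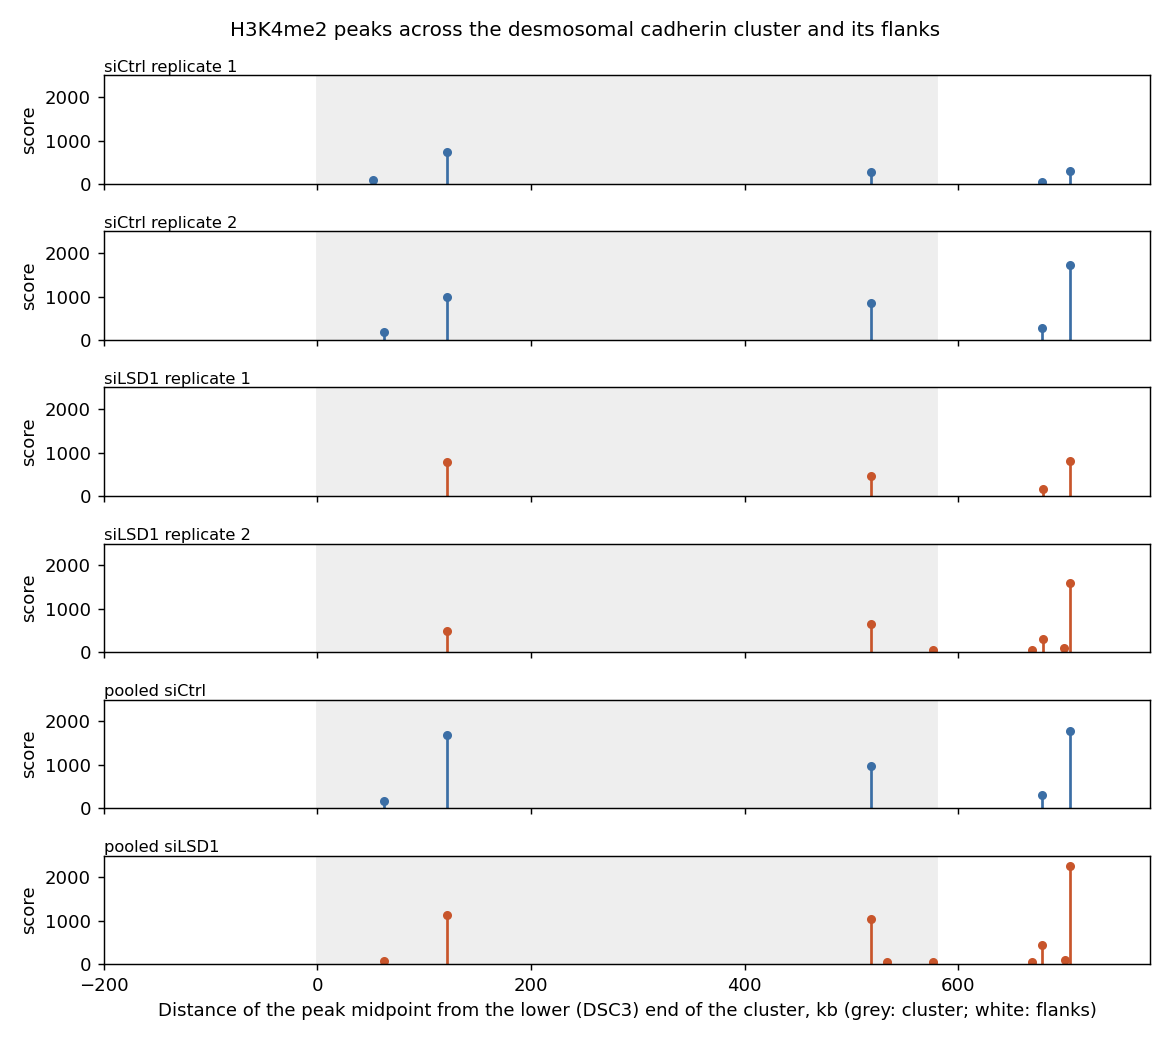
Peaks of each list along the cluster (grey) and its flanks of 200 kb (white), with the distance of the peak midpoint from the DSC3 end in kb on the horizontal axis and the authors' peak score on the vertical axis, siCtrl in blue and siLSD1 in orange. Every list has a peak at 121 kb and at 517 kb to 518 kb from the DSC3 end, and none has one in the 395 kb between them.

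The authors gave every peak a score. Judged by the minimum of 50 or 50.01 in each list, it may be a peak caller's p-value on a scale of -10 log10, so that a higher score is a clearer peak. Scores are given to describe and rank peaks within each list, and no test between the groups was made on them. The region 121 kb from the DSC3 end was the higher-ranked of the 2 common regions in 3 of the 4 libraries. It lay at chromosome 18 from 28680559 to 28682744. Its score was 733.36 and 994.17 in siCtrl replicates 1 and 2 and 779.45 and 476.83 in siLSD1 replicates 1 and 2. Those scores put it at percentiles 92.0 and 78.9 of the siCtrl lists and 91.4 and 72.5 of the siLSD1 lists, above the median peak of each list.

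The width of this region also overlapped between the groups. It was 1864 and 1983 bp in siCtrl replicates 1 and 2 and 2017 and 1809 bp in siLSD1 replicates 1 and 2. The means were 1923.5 ± 84.1 bp (SD, n = 2) after siCtrl and 1913 ± 147 bp (SD, n = 2) after siLSD1, with a two-sided exact permutation p of 1.0. The sign of this difference of -10.5 bp depended on the library, as it was 49 bp without siCtrl replicate 2 and 93.5 bp without siLSD1 replicate 2. Its upper edge lay at 28682639 and 28682633 in the siCtrl libraries and at 28682575 and 28682482 in the siLSD1 libraries. Both siLSD1 edges thus stood further down than both siCtrl edges, by at least 58 bp. Over the genome, 11.5% of the 20347 common regions with 1 peak per library had their upper edge further down in both siLSD1 libraries.

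The region 517 kb from the DSC3 end lay at chromosome 18 from 29077409 to 29079556, in the part of the cluster nearest to the DSG2 end. Its peaks were wider after siLSD1 in both libraries than in either siCtrl library, and the exact test did not call the difference. Its width was 1254 and 1651 bp in siCtrl replicates 1 and 2 and 1749 and 1871 bp in siLSD1 replicates 1 and 2. The groups did not overlap, with 98 bp between the nearest libraries. The means were 1452.5 ± 281 bp (SD, n = 2) after siCtrl and 1810 ± 86.3 bp (SD, n = 2) after siLSD1. The difference of 358 bp had a two-sided exact permutation p of 0.333, the smallest that 2 libraries against 2 allow. It was 159 bp without siCtrl replicate 1, the library with the shortest list, and 556 bp without siCtrl replicate 2. Of the 26653 regions with a peak in all 4 libraries, 30.3% were broader in both siLSD1 libraries and 9.62% narrower, so that 1 broader region of the cluster's 2 does not set it apart.

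The edges of this region separated the groups on the upper side only. The upper edge lay at 29079001 and 29079119 in siCtrl replicates 1 and 2 and at 29079241 and 29079428 in siLSD1 replicates 1 and 2. Both siLSD1 edges stood at least 122 bp beyond both siCtrl edges, as in 28.4% of common regions with 1 peak per library. The lower edge lay at 29077748 and 29077469 in the siCtrl libraries and at 29077493 and 29077558 in the siLSD1 libraries, where the groups overlapped. The mean upper edge stood 274 bp further up after siLSD1 and the mean lower edge differed by -83 bp, that is further down. The edges were compared after the widths had been seen.

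**Figure D3:**
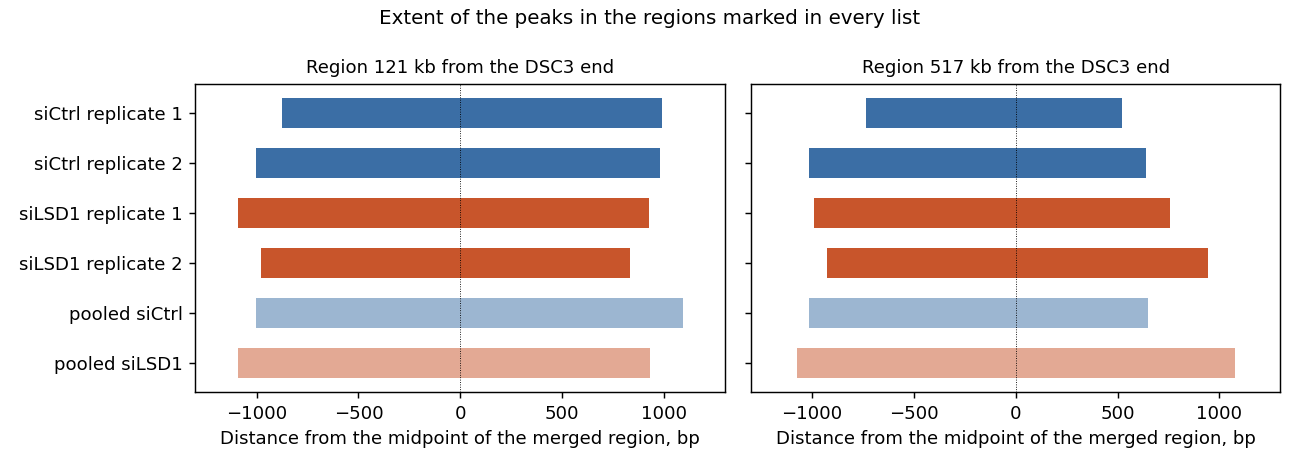
Extent of the peak in each list (bars) at the regions 121 kb and 517 kb from the DSC3 end, as distance in bp from the midpoint of the merged region, siCtrl in blue, siLSD1 in orange and pooled lists in paler shades. On the right-hand side of the 517-kb region both siLSD1 bars reach at least 122 bp further than both siCtrl bars, and in the 121-kb region they stop at least 58 bp shorter.

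The score of the region 517 kb from the DSC3 end was 268.19 and 848.19 in siCtrl replicates 1 and 2 and 466.91 and 649.5 in siLSD1 replicates 1 and 2, and its lowest and highest values were both in siCtrl libraries. Within the lists it stood at percentiles 65.0 and 75.1 after siCtrl and 80.1 and 80.2 after siLSD1, but lists of different length cannot be compared by rank. In lists of equal length, 33878 peaks each, the percentiles were 65.0 and 67.0 after siCtrl and 70.3 and 71.0 after siLSD1. How many other common regions are apart in rank was not tested. For the region 121 kb from the DSC3 end they were 92.0 and 72.1 after siCtrl and 87.2 and 59.7 after siLSD1, and overlapped. In siLSD1 replicate 2 the 517-kb region outranked the 121-kb region. In the other 3 libraries the order was the reverse.

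Near the DSC3 end, 2 weak regions were called in siCtrl libraries, each in a different library. One at chromosome 18 from 28612150 to 28612828 was in siCtrl replicate 1 alone, with a width of 679 bp, a score of 92.29 and percentile 25.8, and in neither pooled list. The other, from 28622037 to 28623319, was in siCtrl replicate 2 alone among the libraries, with a width of 998 bp, a score of 178.75 and percentile 39.3. It was also in both pooled lists, with a score of 170.39 after siCtrl and 66.83 after siLSD1, although neither siLSD1 library list had a peak there. The pooled siLSD1 list thus holds a peak here that its library lists lack. These regions lay 9.21 kb apart.

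Near the DSG2 end, 2 weak regions were called only after siLSD1. One at chromosome 18 from 29135686 to 29136639 had a peak in siLSD1 replicate 2, with a score of 51.2, close to the lowest score of the list, and in the pooled siLSD1 list, with 62.11. The other, from 29093142 to 29094074, was in the pooled siLSD1 list only, with a score of 56.94 and percentile 4.6. The first is the member closest to a bound of the cluster, 3.36 kb inside its upper end, and the next region outside lay 88.7 kb beyond that end with a score of 50.81 in siLSD1 replicate 2.

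No region of the cluster was gained or lost, where gained means a peak in both siLSD1 libraries and in neither siCtrl library, and lost the reverse. Of the cluster's 5 regions in the library lists, 0 were gained, against 6.97% of the 58952 regions of the genome, and 0 were lost, against 1.04%. With 5 regions, a share like that of the genome would give fewer than 1 region. Regions found in 1 library made up 3 of the 5, against 24.6% of all regions, and regions found in all 4 made up 2 of the 5, against 45.2%. Without siLSD1 replicate 1 the region at 29135686 would count as gained, and without siCtrl replicate 1 or 2 a region near the DSC3 end would count as lost, since a single library then stands for its group. In the pooled lists, 2 of 5 siLSD1 peaks (40.0%) overlapped no siCtrl peak, against 27.0% over the genome, and 0 of 3 siCtrl peaks overlapped no siLSD1 peak, against 8.86%. With 45219 peaks in each pooled list the counts were 0 and 1, the 1 being the region near the DSC3 end, whose pooled siLSD1 score of 66.83 was below the 89.2 needed to stay in the list.

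The sequence under peaks in the whole cluster overlapped between the groups with all peaks, and no difference was called. It was 3.80 and 4.63 kb in siCtrl replicates 1 and 2 and 3.77 and 4.34 kb in siLSD1 replicates 1 and 2. The means were 4.21 ± 0.59 kb (SD, n = 2) and 4.05 ± 0.404 kb (SD, n = 2), with an exact permutation p of 0.667. The difference of -0.163 kb was smaller than the spread between replicates, and it was 0.254 kb without siCtrl replicate 2 and 0.122 kb without siLSD1 replicate 1. With equal numbers of peaks per list it was -0.492 kb. The libraries then had 3.80 and 4.63 kb after siCtrl and 3.77 and 3.68 kb after siLSD1, without overlap (exact permutation p = 0.333). With the upper 50% of each list by score the difference was 0.347 kb, of the opposite sign, with the same exact permutation p of 0.333. The groups did not overlap there either, and siLSD1 was the higher. With all peaks there were 3 in every library but siLSD1 replicate 1, which had 2. With equal numbers both siLSD1 libraries had 2, as the low-scoring peak of siLSD1 replicate 2 was dropped. The difference was -1.0 peaks, with an exact permutation p of 0.333. The cutoffs were unlike, at scores of 104.59 in siCtrl replicate 2 and 110.92 and 115.41 in siLSD1 replicates 1 and 2. The shortest list, siCtrl replicate 1, kept all its peaks, down to 50.01. Its weak peak with a score of 92.29 stayed, and is below each of the other cutoffs. Both differences with equal numbers include that peak. In these bulk cells, more cells with the mark and more of the mark per cell cannot be told apart.

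Peaks covered between 0.649% and 0.799% of the cluster in the 4 libraries, which is less than the 1.41% to 2.38% of chromosome 18 and the 2.31% to 3.44% of chromosomes 1 to 22 and X. The lists as a whole covered 1.23 times as much sequence after siLSD1 as after siCtrl, and the cluster 0.961 times as much. Set against the total length under peaks, the cluster held 54.1 and 49.2 bp per Mb in siCtrl replicates 1 and 2 and 38.9 and 41.5 bp per Mb in siLSD1 replicates 1 and 2. The groups did not overlap in this measure, with an exact permutation p of 0.333, the smallest this design allows. The total length alone was also without overlap, at 70.1 and 94.1 Mb after siCtrl and 96.9 and 104 Mb after siLSD1. The kilobases of the cluster overlapped. How many other loci are apart in this measure was not tested, so it is not a result about the cluster. In the pooled lists the order was the reverse, with 45.1 bp per Mb after siCtrl and 53.7 after siLSD1. Pooled peaks covered 4.84 kb of the cluster after siCtrl and 7.09 kb after siLSD1, without replicates. The library lists held from 33878 peaks in siCtrl replicate 1 to 50587 in siLSD1 replicate 1, and the read depth behind them is unknown. The part of list length in the difference between the library groups was not tested.

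**Figure D4:**
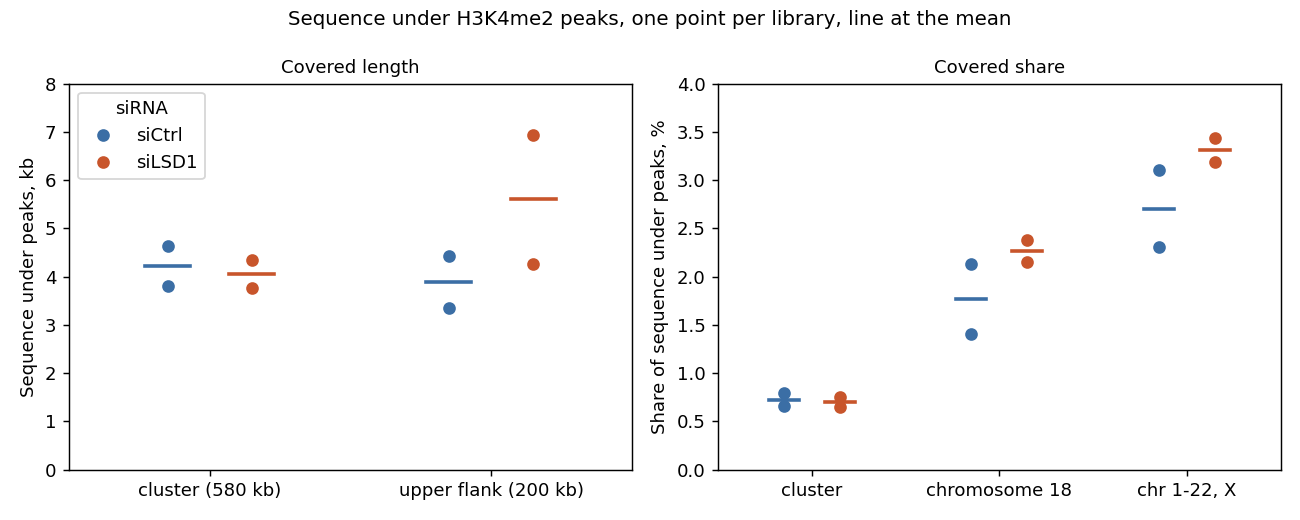
Sequence under peaks in kb in the cluster and its upper flank (left) and as a percentage of the cluster, of chromosome 18 and of chromosomes 1 to 22 and X (right), with a point for each library and a line at the group mean, siCtrl in blue and siLSD1 in orange. The cluster's points overlap at 3.77 to 4.63 kb, and its covered share stays below 0.8% in every library.

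In limma's test of covered kilobases across 43372 windows of 10 kb, 2 windows of the cluster had enough sequence under peaks to be tested, and 0 were called, as 0% of windows were in either direction over the genome. At an unadjusted p under 0.05, limma had 0 of the 2, against 12.4% of all windows higher and 1.94% lower after siLSD1. The window from 29070001 to 29080000, which holds the region 517 kb from the DSC3 end, differed by 0.357 kb (SE 0.215) between siLSD1 and siCtrl. Its limma adjusted p was 0.643. The window from 28680001 to 28690000 differed by -0.0105 kb (SE 0.169), with a limma adjusted p of 0.996. With quantile normalization these differences were 0.0578 and -0.315 kb. In windows of 25 kb, the window from 28600001 to 28625000, which joins the 2 weak regions near the DSC3 end, differed by -0.838 kb (SE 0.246) between siLSD1 and siCtrl. Its limma p was 0.0321 unadjusted and 0.284 adjusted. The window passed the filter for testing through the siCtrl libraries alone. Replicate 1 had 679 bp there and replicate 2 had 998 bp, from different regions, and neither siLSD1 library had a peak. Its p therefore gives no support for a loss. This window is 1 of the cluster's 3 of that size tested. Over the genome, 1.60% of windows of that size were lower and 12.6% higher at an unadjusted p under 0.05.

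The flanks of the cluster were unlike each other. The 200 kb below the DSC3 end held no peak in any of the 6 lists, and lay within a peak-free stretch of 1648.3 kb, from 26963809 to the first region of the cluster. The 200 kb above the DSG2 end held 4 regions. Their sequence under peaks was 3.34 and 4.42 kb in siCtrl replicates 1 and 2 and 4.27 and 6.93 kb in siLSD1 replicates 1 and 2. The means of 3.88 ± 0.767 kb and 5.60 ± 1.89 kb (SD, n = 2 each) had an exact permutation p of 0.667. In the upper flank 2 regions were in all 4 libraries and 2 in siLSD1 replicate 2 alone, as was the cluster's region at 29135686. The strongest region of the flank, from 29262869 to 29266440, scored 310.64 and 1737.32 in siCtrl replicates 1 and 2 and 802.4 and 1600.63 in siLSD1 replicates 1 and 2.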

How the data were processed

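The 4 ChIP libraries (2 siCtrl, 2 siLSD1) and 2 pooled lists were used. Per the submitters' processing notes, reads were aligned with Bowtie to hg19. The deposited peaks are named after MACS, a peak caller. Its version and settings, the role of the input libraries and the way of pooling are not stated in these sources. The authors' peak score has no stated unit, and its minimum of 50 or 50.01 fits -10 log10 of a p-value. Read depth is unknown, so no counting error could be computed, and deeper sequencing alone can lengthen a list. Replicates are those the submitters call biological. Peaks on chromosomes 1 to 22 and X were kept, which left out 3 to 26 peaks per library list and 78 and 85 per pooled list. Coordinates are hg19, counted from 1.

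Peaks overlapping by at least 1 bp were merged. Library values were compared by two-sided exact permutation. Kilobases under peaks per 10-kb window were tested with limma 3.58.1 (R 4.3.3, trend and robust, statmod 1.5.0) over all windows with at least 0.5 kb in at least 2 libraries, with Benjamini-Hochberg adjustment over all windows and a threshold of 0.05. Merging and limma were tested on simulated data. With the same spread in every simulated window, limma called 35 of 100 windows shifted by 2 kb. It called 100 of 100 shifted by 10 kb, with 5 false calls. The widest library peak of the cluster was 2017 bp, so 0 windows called there does not exclude a change. The score percentile is the share of a list's peaks with a lower score, ties counted in the middle. Promoters and gene order came from RefSeq tables on GRCh38.p14, and the cytoband and chromosome lengths of hg19 from circlize 0.4.16. The remaining steps ran in Python 3.11.15 (scipy 1.17.1, pandas 2.3.3, numpy 2.4.6). All regions of the cluster are named, as the rule allowed up to 20. A list of other desmosome genes was not tested, since no hg19 annotation was used. The cluster, its bounds and the lists were chosen with earlier results of these data known. The results were recomputed with equal numbers of peaks, with peaks above the median score (the upper 50%), with a stricter overlap (50% of the shorter peak), with merging across 1000 bp, with the flanks added, with a replicate block, with other limma settings and without each library. Those for single regions were added after the data were seen.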

Additional observations from a re-analysis of the deposited data

How the results depend on the processing

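The call of 0 gained and 0 lost regions held with the upper 50% of each list, equal numbers of peaks, a 50% overlap and merging across 1000 bp, and each count ranged from 0 to 1 when a library was left out. The difference in covered sequence, -0.163 kb, became -0.492 kb with equal numbers of peaks, 0.347 kb with the upper 50% of peaks and 1.56 kb with the flanks added, and ranged from -0.58 to 0.254 kb when a library was left out. The difference of -0.5 peaks became -1.0 with equal numbers, 0.0 with the upper 50% and 0.5 with the flanks, and ranged from -1.0 to 0.0 when a library was left out. The peaks found only in the pooled siLSD1 list, 2 of 5, were 0 with equal numbers and 0 in the upper 50%, and those only in the pooled siCtrl list, 0 of 3, were 1 with equal numbers. Equal numbers and the upper 50% drop low-scoring peaks by construction, but equal numbers leave the shortest lists, siCtrl replicate 1 and pooled siCtrl, whole. Adding the flanks brings in the peaks of the upper flank, whose covered sequence differed by 1.72 kb between siLSD1 and siCtrl. For the remaining reversals the cause was not tested. For the region 121 kb from the DSC3 end, leaving out a library gave differences from -114 to 93.5 bp in width and from -0.115 to 0.0935 kb in limma, where quantile normalization gave -0.315 kb. The 517-kb region kept its direction in each alternative run, with limma differences of 0.0578 to 0.556 kb. The replicate numbers pair nothing the labels name. Same-numbered deviations correlated at r = 0.15 over 43372 windows, but with 2 pairs this shows no pairing. With a replicate block the difference in covered sequence was -0.163 kb and limma called 0 windows of the cluster, as it did under every other limma setting run. The exact test of 2 libraries against 2 cannot go below a p of 0.333, and read depth is unknown.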

Other observations

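The promoters of DSG1 and DSG3, the desmogleins known as targets of autoantibodies in pemphigus, share a run of 20 bases, aagtttttacctgggagcaa, on the same strand. It begins 120 bases before the listed start of DSG1 and 78 bases before that of DSG3. Among the 35116 promoters of the table, 2 hold this run on either strand. The longest run shared by any other pair of desmosomal cadherin promoters, out of 20 pairs compared on both strands, was 10 bases. The match was looked for after the sequences had been seen, and it says nothing about what binds there.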
